A study of Mus musculus with 2 samples.

Results

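The genes described here are 10 genes of canonical Wnt signalling and of the liver's central-vein programme: the ligands Wnt2 and Wnt9b, the enhancer Rspo3, the receptor Lgr5, the feedback genes Axin2, Rnf43 and Znrf3, and the pericentral target genes Tbx3, Glul and Lect2. They were taken by name, through the RefSeq identifier of each transcript, from a deposited mRNA table that holds 20317 genes with a symbol. All 10 were found. The table comes from RNA-seq of primary hepatocytes, the main cells of the liver parenchyma, that had been isolated from wild-type (WT) C57BL/6J mice. In 1 library the mice had received intraperitoneal injections of oil. In the other they had received CCl4, a solvent that hepatocytes of the central zone turn into a toxic radical, as a 20% solution in mineral oil at 2.5 ml CCl4/kg, 2 times a week. The mice were male and 5 weeks old when obtained, before the injections, and the hepatocytes were obtained by enzymatic perfusion of the liver and a density gradient. The labels give 8 weeks of injection, whereas the methods give 4 weeks. How many mice contributed to each library is not given in the sources used here.

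Each group therefore had 1 library, so there was no spread between replicates and no test between conditions, and every difference below is a difference between these 2 libraries. Levels are in RPKM, reads scaled to transcript length and to the reads mapped in a library, which allows levels to be compared between genes. Between libraries it depends on what else each library holds, so calls that end with the libraries scaled to their median entry are marked. Values set against the median hepatocyte or endothelial gene are given separately. Entries under 1 RPKM are listed at 0. Fold changes are the log2 of CCl4 over oil after adding 0.1 RPKM to both, for genes above 0 in both libraries, and a gene is called higher or lower when the log2 fold change is at least 1 in size. Library depth, recovered from the steps of the RPKM values, was 57992539 reads for oil and 64655523 for CCl4. Intervals are 95% Clopper-Pearson intervals of the depth-scaled read ratio, on the log2 scale. They cover counting error only, and the reads behind them are lower bounds.

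Wnt proteins are secreted ligands that bind Frizzled receptors and the co-receptors Lrp5 and Lrp6, after which beta-catenin escapes degradation, enters the nucleus and activates genes with TCF/LEF factors. R-spondins bind Lgr receptors and withdraw the ubiquitin ligases Rnf43 and Znrf3 from the cell surface, which leaves more Frizzled receptor in place. In the liver, endothelial cells of the central vein secrete Wnt2, Wnt9b and Rspo3, and the hepatocytes next to them carry a beta-catenin programme that includes glutamine synthesis and drug metabolism. Periportal hepatocytes, at the other end of the lobule, carry out urea synthesis and gluconeogenesis.

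The promoters of 5 members whose levels are described below are shown because beta-catenin reaches its target genes through TCF/LEF factors bound to DNA. Each run is the 250 bases before a RefSeq start in GRCm38.p6, the assembly also named mm10. It is written 5′ to 3′ on the strand of the gene. The Wnt2, Wnt9b and Axin2 windows lie inside the gene intervals given below, so they precede an inner start. The Lect2 window overlaps the end of its interval. Capitals mark a TCF/LEF core (CTTTGAT, or ATCAAAG where it lies on the reverse strand) or a GC box (GGGCGG, or CCGCCC on the reverse strand), both searched on both strands. The 5 windows are Wnt2 at chr6:18030446-18030695 (minus strand), Wnt9b at chr11:103749822-103750071 (minus), Axin2 at chr11:108920099-108920348 (plus), Glul at chr1:153899679-153899928 (plus) and Lect2 at chr13:56548539-56548788 (minus).
Wnt2: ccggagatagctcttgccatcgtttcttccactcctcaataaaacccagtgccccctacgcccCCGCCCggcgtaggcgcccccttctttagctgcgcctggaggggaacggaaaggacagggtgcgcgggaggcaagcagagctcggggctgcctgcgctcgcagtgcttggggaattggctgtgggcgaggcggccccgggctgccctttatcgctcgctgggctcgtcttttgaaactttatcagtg
Wnt9b: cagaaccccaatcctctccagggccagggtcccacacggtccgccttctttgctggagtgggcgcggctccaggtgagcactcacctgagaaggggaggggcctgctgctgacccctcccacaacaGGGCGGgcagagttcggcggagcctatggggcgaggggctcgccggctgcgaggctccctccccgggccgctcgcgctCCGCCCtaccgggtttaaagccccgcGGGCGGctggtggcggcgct
Axin2: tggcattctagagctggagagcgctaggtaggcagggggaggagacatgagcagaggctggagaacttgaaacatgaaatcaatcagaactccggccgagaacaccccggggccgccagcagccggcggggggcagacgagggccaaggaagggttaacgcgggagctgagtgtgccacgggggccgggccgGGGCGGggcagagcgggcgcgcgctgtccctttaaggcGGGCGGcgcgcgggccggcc
Glul: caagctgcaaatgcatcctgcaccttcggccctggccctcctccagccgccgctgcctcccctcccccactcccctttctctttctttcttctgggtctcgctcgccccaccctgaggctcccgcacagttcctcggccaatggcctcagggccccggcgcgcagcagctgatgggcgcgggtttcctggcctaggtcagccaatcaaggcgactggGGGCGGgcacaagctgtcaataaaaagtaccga
Lect2: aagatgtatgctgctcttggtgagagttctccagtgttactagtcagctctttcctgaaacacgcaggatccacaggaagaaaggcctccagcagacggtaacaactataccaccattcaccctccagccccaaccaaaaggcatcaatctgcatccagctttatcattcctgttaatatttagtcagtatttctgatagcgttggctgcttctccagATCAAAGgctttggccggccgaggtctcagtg

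Of these 5, Lect2 alone held a TCF/LEF core, on the reverse strand from 32 to 26 bases before the start. Such a core occurs in 1053 of 32851 mouse promoters of this length, or 3.21%. GC boxes, found in 32.7% of the promoters, were present in the other four. Wnt9b held 3, Axin2 held 2, and Wnt2 and Glul held 1 each. The promoters also differed in base composition, from 48.0% G and C in Lect2 to 72.0% in Wnt9b. The Rnf43 promoters held neither motif. Only 6 members had a promoter entry, so Lgr5, Znrf3, Tbx3 and Rspo3 were not searched. A match is a description of letters, and its absence says only that those letters are not in this window.

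The members spanned a wide range of levels. In the oil library the order was Glul, Lect2, Wnt2, Rspo3, Wnt9b, Rnf43 and Tbx3, and the same 7 genes kept that order in the CCl4 library. Axin2 was listed above 0 in the CCl4 library only, and Lgr5 and Znrf3 were listed at 0 in both. With 1 library a group, whether neighbours in this order differ beyond their spread cannot be stated.

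**Figure D1:**
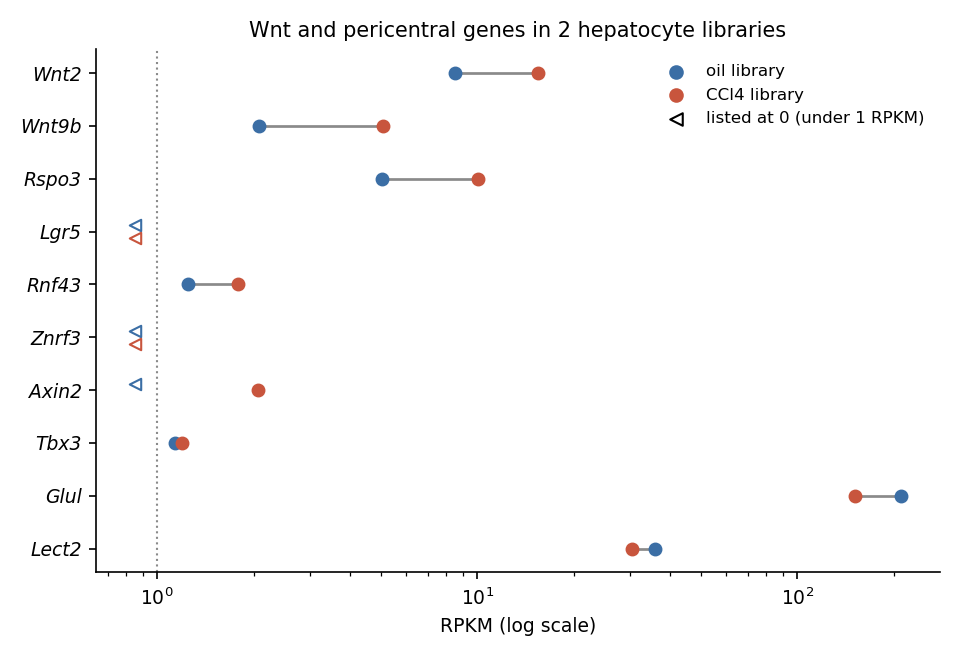
Levels of the 10 members in the oil and CCl4 libraries, in RPKM on a log axis with entries listed at 0 drawn as open triangles left of 1 RPKM; 1 library per group, so no error bars. Glul and Lect2 lie far to the right and were lower in CCl4, while the points of Wnt2, Wnt9b and Rspo3 move to the right.

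Both Wnt ligands of the central vein and Rspo3 were higher in the CCl4 library. Wnt2 (NM_023653; chr6:17985474-18032772), a ligand made by liver endothelial cells, was at 8.54 RPKM in oil and 15.5 RPKM in CCl4. That is a 1.81-fold higher level, a log2 fold change of 0.86, with a counting interval of 0.68 to 1.05. Its fold change was above that of 81.3% of the 10689 genes above 0 in both libraries, and just under the size for a call.

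Wnt9b (NM_011719; chr11:103727362-103775272), the other ligand known from central-vein endothelium, was at 2.08 RPKM in oil and 5.06 RPKM in CCl4. The level was 2.37-fold higher, and the log2 fold change of 1.24 (interval 1.14 to 1.43) was above that of 91.2% of genes. Wnt9b was the only member called. With 1 RPKM added in place of 0.1 its log2 fold change was 0.98, and with the libraries scaled to their median entry it was 0.92, so the call was lost under both. In RefSeq the Wnt9b gene overlaps part of Wnt3, another ligand, which was listed at 0 in both libraries.

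Rspo3 (NM_028351; chr10:29453106-29535867), the R-spondin of central-vein endothelium and stellate cells, was at 5.03 RPKM in oil and 10.1 RPKM in CCl4. It was 1.98-fold higher, with a log2 fold change of 0.99 and an interval of 0.87 to 1.13, so the size for a call lay inside the counting interval. Wnt2, Wnt9b and Rspo3 thus lay in the upper part of all genes, in 1 direction, and with intervals above 0.

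The marker lists of cells that make these ligands had positive median fold changes as well. All 18 liver endothelial genes were above 0 in both libraries, with log2 fold changes from 0.05 for Thbd, which encodes thrombomodulin, to 1.05 for Lyve1, a receptor of sinusoidal endothelium. Of the 18, 2 were called higher (Lyve1 and Fcgr2b, an Fc receptor, 1.04), against 14.3% of the 10689 genes above 0 in both libraries, and none was called lower. No endothelial gene was called with the libraries scaled to the median entry or with the 10 most abundant entries left out. The most abundant, the lectin gene Clec4g, was at 238 RPKM in oil and 380 RPKM in CCl4 (0.67). The list's median was 0.71, and its summed level was 745 RPKM in oil and 1257 RPKM in CCl4. Wnt9b had a larger log2 fold change than all 18 endothelial genes, Rspo3 than 15 and Wnt2 than 14. Set against the median endothelial gene, the log2 differences were 0.53 for Wnt9b, 0.27 for Rspo3 and 0.14 for Wnt2. Of the 20 stellate cell and myofibroblast genes, 16 were above 0 in both libraries. All 16 were called higher (15 with the libraries scaled to the median entry or with 1 RPKM added), with a median of 3.13. The largest were the collagen genes Col1a1 (5.39) and Col1a2 (4.39) and the matrix gene Lum (4.62), and the most abundant was Col3a1, another collagen gene, at 19.6 RPKM in oil and 290.1 RPKM in CCl4 (3.88). Their summed level was 117.7 RPKM in oil and 1201 RPKM in CCl4, and the other 4 (Ngfr, Pdgfrb, Hand2 and Lox) were listed at 0 in oil. All 16 had larger fold changes than Wnt2 and Rspo3, and 15 had larger ones than Wnt9b. The part of these cell types in the ligand levels was not tested. In bulk libraries of this kind, fewer cells of a type and less RNA per cell cannot be told apart.

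**Figure D2:**
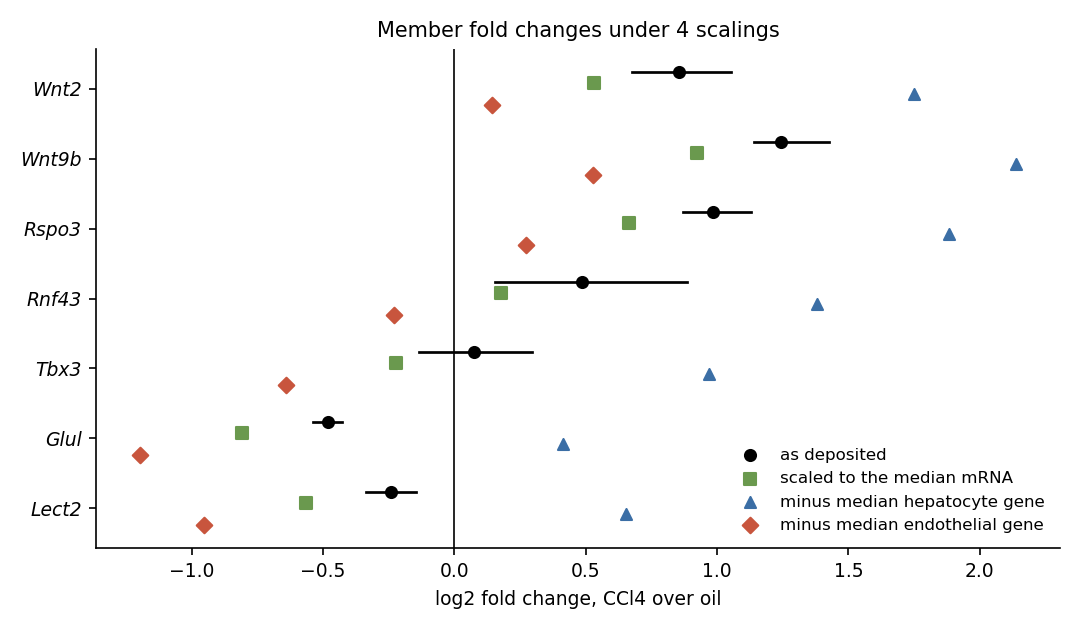
Log2 fold change, CCl4 over oil, of the 7 members above 0 in both libraries, under the deposited scaling, with the libraries scaled to the median mRNA entry, and set against the median hepatocyte or endothelial gene; bars on the deposited values are 95% counting intervals. Wnt9b, Rspo3 and Wnt2 stay above 0 in every setting, Glul and Lect2 are above 0 only against the median hepatocyte gene, and Rnf43 and Tbx3 also change sign.

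Among receptors and feedback genes, levels were low. Lgr5 (NM_010195; chr10:115450314-115587780), an R-spondin receptor and Wnt target of pericentral hepatocytes, was listed at 0 in both libraries. Znrf3 (NM_001080924; chr11:5276329-5444847), a ligase that removes Frizzled receptors, was likewise listed at 0 in both. The entries therefore place both genes under 1 RPKM and give no direction.

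Rnf43 (NM_172448; chr11:87663087-87735539), the ligase related to Znrf3, was at 1.25 RPKM in oil and 1.79 RPKM in CCl4. The log2 fold change was 0.49, at 62.2% of the distribution of all genes, and the interval of 0.16 to 0.89 rested on at least 104 and 166 reads. It was 0.18 with the libraries scaled to the median entry, and -0.23 against the median endothelial gene.

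Axin2 (NM_015732; chr11:108917828-108950783), a scaffold of the beta-catenin destruction complex and itself a widely used Wnt target, was listed at 0 in oil and at 2.06 RPKM in CCl4. No exact fold is given because the oil value is known only to be under 1 RPKM. Of the 12012 genes above 0 in at least 1 library, 9.67% were listed above 0 in CCl4 only and 1.34% in oil only. Axin2 was the 1 such gene among the 8 members above 0 in at least 1 library, and no member was listed in oil only.

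None of the pericentral targets was called in either direction, and the most abundant, Glul, was lower in the CCl4 library. Glul (NM_008131; chr1:153899929-153909723), which encodes glutamine synthetase and is confined to the hepatocytes around the central vein, was at 211.5 RPKM in oil and 151 RPKM in CCl4. It was 1.40-fold lower, a log2 fold change of -0.48 with an interval of -0.54 to -0.43 from at least 6293 and 5021 reads. Of all genes, 14.1% had a lower fold change.

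Lect2 (NM_010702; chr13:56529734-56548559), a secreted hepatocyte protein and beta-catenin target, was at 35.9 RPKM in oil and 30.4 RPKM in CCl4. It was 1.18-fold lower, with a log2 fold change of -0.24 and an interval of -0.34 to -0.14. The RefSeq interval of Lect2 overlaps that of Fbxl21. Lect2 thus differed less between the libraries than Glul, and neither was called.

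Tbx3 (NM_198052; chr5:119670534-119684724), a transcription factor of pericentral hepatocytes, was at 1.13 RPKM in oil and 1.20 RPKM in CCl4. Its log2 fold change of 0.07 had an interval of -0.13 to 0.30, which includes 0. The other Tbx3 transcript, NM_011535, was at 1.13 RPKM and 1.18 RPKM. The Tbx3 log2 fold change was -0.22 with the libraries scaled to the median entry and 0.97 against the median hepatocyte gene. No direction is therefore given for Tbx3.

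Over the 7 members with a fold change, 1 was called higher and none lower, and the median log2 fold change was 0.49. Over all 10689 genes above 0 in both libraries, 14.3% were called higher, 5.48% were called lower and the median was 0.30. The members' share of calls was thus near the background. By transcript entries rather than genes, 14.4% of 14854 were called higher and 5.30% lower, so that 73.2% of calls were higher. With the libraries scaled to the median entry this split was 43.5%, a shift of 0.33 on the log2 scale. On that scale Wnt2 was at 0.53, Rspo3 at 0.66, Glul at -0.81, Lect2 at -0.56 and Tbx3 at -0.22.

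The hepatocyte label was set against hepatocyte markers, since it bears on how Glul, Lect2 and Tbx3 are read. All 12 hepatocyte genes were above 0 in both libraries. Alb, which encodes albumin, was at 8656 RPKM in oil and 6476 RPKM in CCl4. Their summed level was 24982 RPKM in oil and 13908 RPKM in CCl4, with a median log2 fold change of -0.90 and 4 of 12 called lower, against 5.48% of all genes. These included Fgb (a fibrinogen chain, -2.15), Hnf4a (a hepatocyte transcription factor, -1.57) and Serpina1a (an antitrypsin, -1.56). With the libraries scaled to the median entry 9 were called lower, against 1447 of 14854 transcript entries. Markers of other liver cells were present in both libraries. The 12 Kupffer cell and macrophage genes summed to 1820 RPKM in oil and 4800.3 RPKM in CCl4, and 8 were called higher, against 14.3% of all genes. Among them were the scavenger receptor Marco (2.71), the lysozyme gene Lyz2 (2.36) and the complement gene C1qb (1.33). With the libraries scaled to the median entry 3 were called higher, against 1114 of 14854 transcript entries. Named after their values were seen, Clec4f, a lectin of Kupffer cells, was at 283 RPKM in oil and 255 RPKM in CCl4 (-0.15), and Cd163 (0.13) and Timd4 (0.38), both macrophage receptors, were not called either. The summed level of the 8 cholangiocyte genes was 51.9 RPKM in oil and 172 RPKM in CCl4, with Spp1, which encodes osteopontin (1.95), and the keratin gene Krt19, at 8.86 RPKM and 17.8 RPKM, called higher. Krt19 lost its call with that scaling, with 1 RPKM added and with the 10 most abundant entries left out.

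Glul had a higher fold change than 10 of the 12 hepatocyte genes, Lect2 and Tbx3 than 11, and Rnf43 than all 12. Against the median hepatocyte gene the log2 differences were 0.41 for Glul, 0.66 for Lect2, 0.97 for Tbx3 and 1.38 for Rnf43. Glul and Lect2 were therefore lower per total RNA and higher relative to the median hepatocyte gene. Whether the lower level of hepatocyte genes had a part in these levels was not tested.

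**Figure D3:**
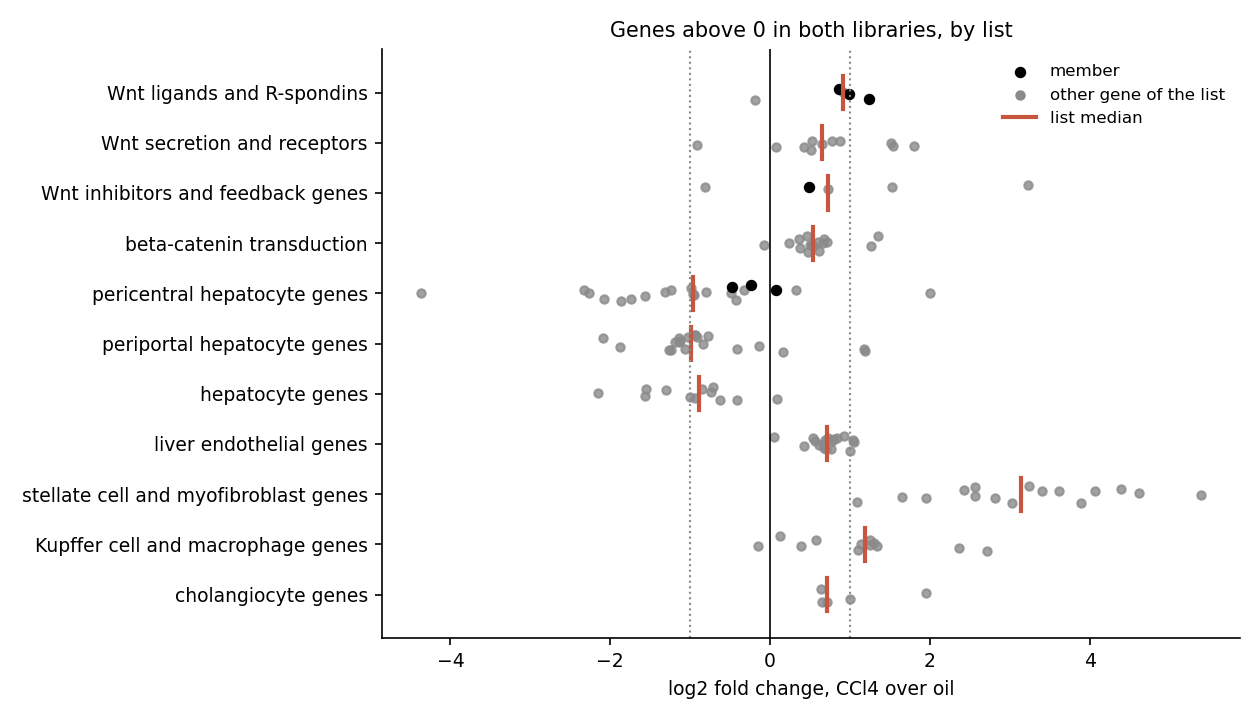
Log2 fold change, CCl4 over oil, of each gene above 0 in both libraries, by gene list, with the list's median as a bar, the members in black and the size for a call dotted. Stellate cell and myofibroblast genes lie highest with a median of 3.13, endothelial genes have a median of 0.71, and hepatocyte, pericentral and periportal genes have medians of -0.90, -0.97 and -0.99.

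The wider pericentral programme was lower in the CCl4 library. All 21 genes of a pericentral list that includes Glul, Lect2 and Tbx3 were above 0 in both libraries, with 9 called lower and 1 called higher, against 5.48% and 14.3% of all genes. The median log2 fold change was -0.97, and 18 of 21 genes were below 0. With the libraries scaled to the median entry 13 were called lower and 1 higher, against 1447 and 1114 of 14854 transcript entries. Against the median hepatocyte gene 4 were called lower and 2 higher, and the median was -0.07. On that scale a gene at a deposited log2 fold change of 0.11, above only 38.3% of all genes, is called higher. A gene at -1.87, above 0.96% of all genes, is not called lower. The summed level was 2782 RPKM in oil and 1250 RPKM in CCl4. Slc1a2, the glutamate transporter that supplies glutamine synthetase, went from 23.2 RPKM in oil to 1.03 RPKM in CCl4, a log2 fold change of -4.36. Cyp2e1, the enzyme that activates CCl4, was at 645 RPKM and 128 RPKM (-2.33). Cyp2c37, a drug-metabolising enzyme, was at 37.4 RPKM and 7.72 RPKM (-2.26). Only Cyp7a1, the rate-limiting enzyme of bile acid synthesis, was called higher, from 4.74 RPKM to 19.2 RPKM.

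Within that list the 3 members lay above the median. Tbx3 had a higher log2 fold change than 18 of the other 20 pericentral genes, Lect2 than 17 and Glul than 14. Glul and Slc1a2 are both restricted to the innermost pericentral hepatocytes, yet their levels were 1.40-fold and 20.6-fold lower in CCl4. The CCl4 level of Slc1a2 lies close to the 1 RPKM under which entries are listed at 0, and adding 1 RPKM gave a log2 fold change of -3.57 and summing its transcripts gave -5.11.

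The periportal list gave much the same figures. All 20 genes were above 0 in both libraries. Of these, 10 were called lower and 2 higher, against the same 5.48% and 14.3%, and the median was -0.99. With the libraries scaled to the median entry 15 were called lower and none higher, against 1447 and 1114 of 14854 transcript entries. Against the median hepatocyte gene 1 was called lower and 3 higher, and the median was -0.09. The shares of all genes given for the pericentral list on that scale apply here too. Pck1, which starts gluconeogenesis, was at 763 RPKM in oil and 179 RPKM in CCl4 (-2.09). Tat, which breaks down tyrosine, was at 645 RPKM and 176 RPKM (-1.87), and Pigr, the carrier of secreted antibodies, at 126 RPKM and 52.6 RPKM (-1.26). The urea cycle gene Ass1 was at 904 RPKM and 473 RPKM (-0.93), not called. The genes called higher were Ctsc, a lysosomal protease, and Aldh1b1, a mitochondrial aldehyde dehydrogenase, both at 1.18, and neither was called with the libraries scaled to the median entry. The medians of the pericentral and periportal lists, -0.97 and -0.99, were also close to the -0.90 of the hepatocyte list, so lower levels were not particular to the pericentral list.

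**Figure D4:**
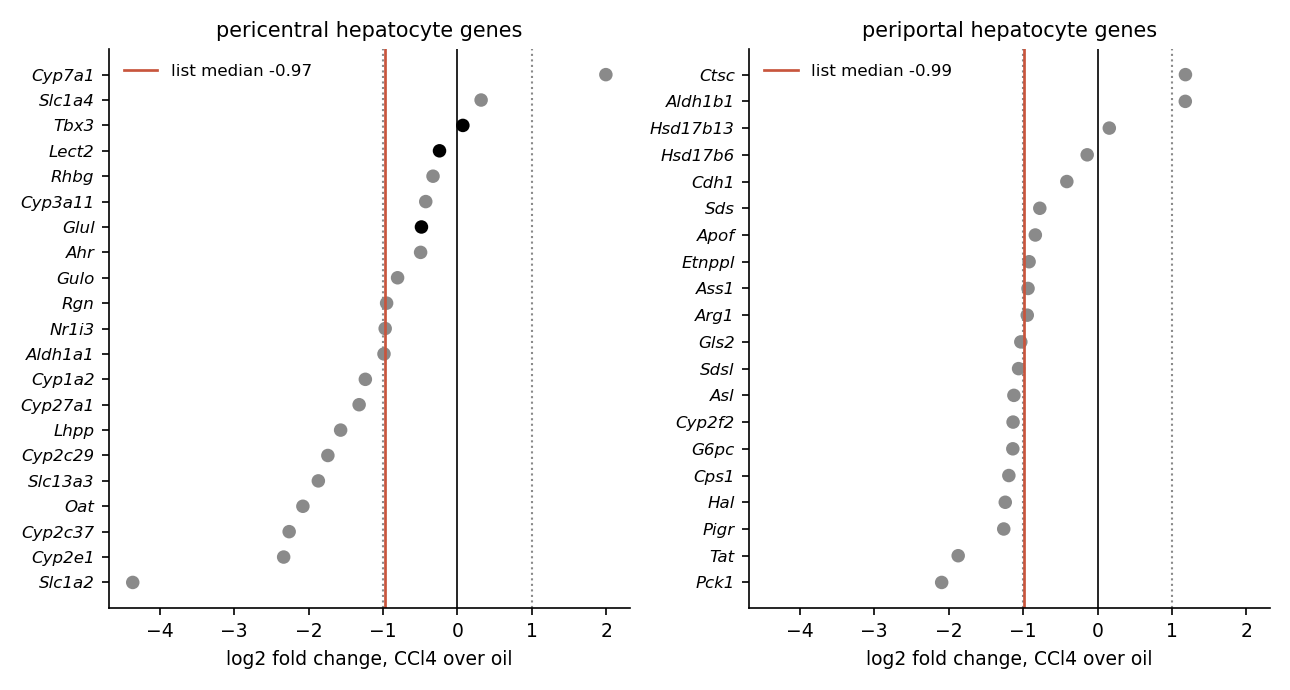
Log2 fold change, CCl4 over oil, of each pericentral and periportal gene, with the size for a call marked. Pericentral genes run from Slc1a2 at -4.36 up to Cyp7a1, the only one called higher, periportal genes from -2.09 to 1.18, and Tbx3, Lect2 and Glul sit at 0.07, -0.24 and -0.48.

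The other Wnt ligands and R-spondins were mostly listed at 0. Of 24 genes, 5 were above 0 in both libraries, 2 in CCl4 only and 17 in neither, where 9.67% of genes above 0 in at least 1 library were listed in CCl4 only and 1.34% in oil only. Of all 20317 genes, 8305 were above 0 in neither. Besides Wnt2, Wnt9b and Rspo3, the R-spondin Rspo1 was at 2.54 RPKM in oil and 4.86 RPKM in CCl4, a log2 fold change of 0.91. Wnt5b, a ligand of mainly beta-catenin-independent signalling, was at 1.65 RPKM and 1.43 RPKM, or -0.19. Wnt4 was listed at 0 in oil and at 3.26 RPKM in CCl4, and Wnt5a at 0 and 1.88 RPKM. The 7 genes summed to 19.8 RPKM in oil and 42.1 RPKM in CCl4.

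Of 20 genes of Wnt secretion and reception, 11 were above 0 in both libraries, 3 in CCl4 only and 6 in neither (8305 of all 20317 genes). Of all genes above 0 in at least 1 library, 9.67% were listed in CCl4 only. Of the 11 genes, 3 were called higher and none lower, against 14.3% and 5.48% of all genes, and the median was 0.65. With the libraries scaled to the median entry 1 was called lower, against 1447 of 14854 transcript entries. The called genes were the Frizzled receptors Fzd1 (2.93 RPKM in oil and 10.4 RPKM in CCl4; 1.80) and Fzd7 (2.50 RPKM and 7.48 RPKM; 1.54), and Wls, the carrier that brings Wnt proteins to the cell surface (5.97 RPKM and 17.3 RPKM; 1.52). The co-receptor Lrp5 was at 18.5 RPKM and 26.6 RPKM (0.52). Lgr4, the R-spondin receptor that stayed above 0 where Lgr5 did not, was at 8.34 RPKM and 4.36 RPKM (-0.92). It is named here after its values were seen.

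Of 20 inhibitors and feedback genes, 5 were above 0 in both libraries, 4 in CCl4 only and 11 in neither (8305 of all 20317 genes). Of genes above 0 in at least 1 library, 9.67% were listed in CCl4 only. Dkk3, a secreted Dickkopf-family protein, went from 1.13 RPKM in oil to 11.4 RPKM in CCl4 (3.22), and Nkd1, a Wnt-induced inhibitor of Dishevelled, from 1.25 RPKM to 3.76 RPKM (1.52). Both were called higher and none was called lower, against 14.3% and 5.48% of all genes. With the libraries scaled to the median entry 1 gene was called lower, against 1447 of 14854 transcript entries. Notum, a secreted enzyme that inactivates Wnt proteins, was at 9.45 RPKM and 5.32 RPKM (-0.82). The genes listed in CCl4 only were Axin2 and, named after their values were seen, the secreted Frizzled-related inhibitors Frzb at 5.44 RPKM, Sfrp2 at 2.35 RPKM and Sfrp1 at 1.58 RPKM.

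Of 22 genes that transduce the signal to the nucleus, 16 were above 0 in both libraries, 4 in CCl4 only and 2 in neither (8305 of all 20317 genes). Of all genes above 0 in at least 1 library, 9.67% were listed in CCl4 only. Of the 16 genes, 2 were called higher and none lower. The share called higher was near the 14.3% of all genes. Ctnnb1, which encodes beta-catenin, was the most abundant, at 76.3 RPKM in oil and 106 RPKM in CCl4 (0.48). Csnk1e, a casein kinase, was at 3.30 RPKM and 8.57 RPKM (1.35), and Dvl2, a Dishevelled protein, at 1.54 RPKM and 3.83 RPKM (1.26). Dvl2 was not called with 1 RPKM added (0.93) or with the libraries scaled to the median entry (0.94). The median of 0.53 was close to that of the members.

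**Figure D5:**
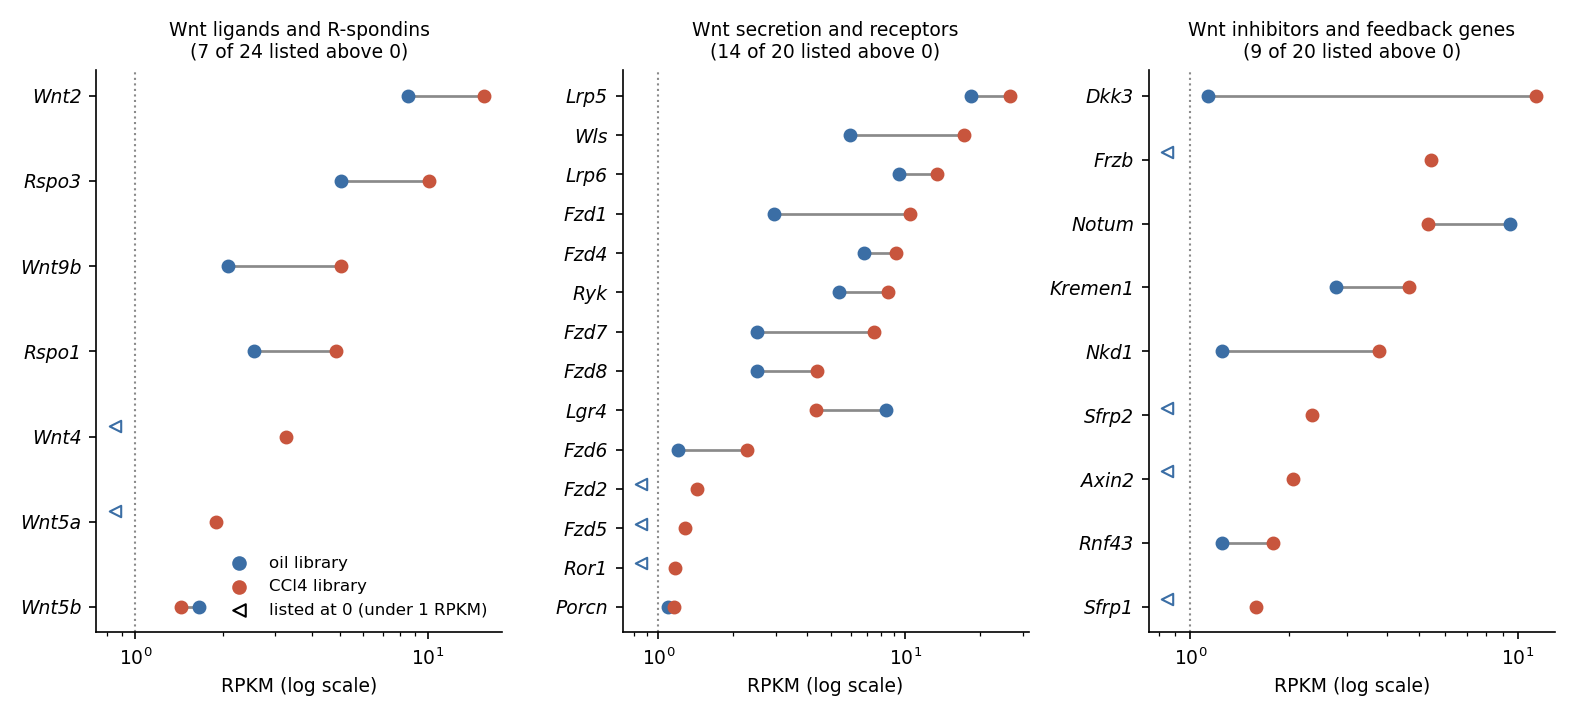
Levels in RPKM (log axis) in the oil and CCl4 libraries of the genes above 0 in at least 1 library among Wnt ligands and R-spondins, secretion and receptor genes, and inhibitors and feedback genes, with entries listed at 0 as open triangles left of 1 RPKM. Most genes lie further right in CCl4, while Wnt5b, Lgr4 and Notum lie further left, the last pair with log2 fold changes of -0.92 and -0.82.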

How the data were processed

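Total RNA of 1 oil and 1 CCl4 library was sequenced. The submitters' processing notes name CASAVA 1.4, TopHat2 and mm10. The counting program, annotation version and strand setting are not given in the sources used here. The deposited mRNA table holds RPKM values computed by the authors, with entries under 1 RPKM listed at 0. Counts deposited for new lncRNAs are raw whole reads. The authors' fold change, p-value and q-value columns were not used.

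Of 27457 mRNA entries, 27049 were matched to symbols through RefSeq (GRCm38.p6), and a gene was its transcript with the highest mean RPKM. The pseudocount was 0.1 RPKM. Depth was recovered from RefSeq RNAs under 400 bases. Reads were then recovered at whichever transcript length, searched upward from 50 to at most 30000 bases, first made both values whole. On 1397 new lncRNAs with known counts, 82.1% came out equal and 0 above. This step was tested on simulated data. With 1 library per group no test was run.

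The members and gene lists were chosen with earlier results of these data known. Named were all members, every Wnt ligand or R-spondin above 0, and from each list the most abundant gene and up to 3 called in each direction. Clauses mark some genes named after their values were seen, and Thbd and the markers listed at 0 were also chosen so. Alternatives were another pseudocount, library scaling, a filter of 5 RPKM, zeros kept, another fold size and summed transcripts. Computation was in Python 3.11.15 with pandas 2.3.3, numpy 2.4.6 and scipy 1.17.1, and plotting in matplotlib 3.10.9.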

Additional observations from a re-analysis of the deposited data

Results flagged for a closer look

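A new lncRNA, TCONS_00004903, lies 93585 bases from Glul (chr1:154003308-154006242, minus strand) in a table that the comparisons above do not use. It had 3 reads in the oil library and 20 reads in the CCl4 library, which is above the oil level, with a log2 read ratio of 2.55 (95% Clopper-Pearson interval 0.80 to 4.95, counting error only) and levels of 0.0616 RPKM and 0.361 RPKM.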

How the results depend on the processing

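No paired analysis was possible because each group has 1 library, and for the same reason no library could be left out. No called value changed sign in the alternatives run, but most of them could not have changed one. The rescalings shift log2 fold changes by less than the size for a call, and adding 1 RPKM keeps the sign. The causes of the shifts below were not tested. Scaled to the median mRNA entry, the log2 fold changes were -0.22 for Tbx3, -0.81 for Glul, -0.56 for Lect2, 0.53 for Wnt2, 0.66 for Rspo3 and 0.92 for Wnt9b. On that scale the genes called higher numbered 0 for ligands, endothelial and periportal genes, and 1 each for transduction and cholangiocyte genes. Kupffer cell genes called higher numbered 3, and stellate cell and myofibroblast genes 15. Those called lower numbered 1 for receptors, 1 for inhibitors, 9 for hepatocyte, 13 for pericentral and 15 for periportal genes. The whole table had 1114 entries higher and 1447 lower. With 1 RPKM added, Wnt9b was at 0.98, 0 ligands were called higher, and 1 transduction and 1 cholangiocyte gene were. With listed zeros taken as 0, 3 ligands and 6 genes each among receptors, inhibitors and transduction genes were called higher, and 3744 entries in the table. Without the 10 most abundant entries, 0 endothelial genes and 1 cholangiocyte gene were called higher. At 5 RPKM or more in both libraries 797 entries were called higher, and at a log2 fold change of 2 there were 245 higher and 96 lower. The settings against a median marker gene were chosen after seeing the data. Subtracting the hepatocyte median of -0.90 calls a gene higher at a deposited log2 fold change of 0.11, which is above only 38.3% of all genes. Counts called higher on that scale are therefore not read as results about the lists. Against the median hepatocyte gene the members were at 1.38 (Rnf43), 0.97 (Tbx3), 0.41 (Glul), 0.66 (Lect2), 1.88 (Rspo3), 1.75 (Wnt2) and 2.14 (Wnt9b), and calls higher numbered 4 ligands, 9 receptors, 4 inhibitors, 15 transduction, 2 pericentral, 17 endothelial and 5 cholangiocyte genes, with 4 pericentral genes and 1 periportal gene lower. Against the median endothelial gene the members were at -0.23 (Rnf43), -0.64 (Tbx3), -1.20 (Glul), -0.95 (Lect2), 0.27 (Rspo3), 0.14 (Wnt2) and 0.53 (Wnt9b). The 1 RPKM floor limits Axin2, Lgr5 and Znrf3.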

Other observations

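A second new lncRNA near a member, TCONS_00015049, lies 47099 bases from Znrf3 (chr11:5491946-5493066) and had 25 reads in oil and 23 reads in CCl4, a log2 read ratio of -0.30 with a counting interval of -1.19 to 0.57.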
